A study of Mus musculus with 5 samples.

Results

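The cells described here are the mouse CD8+ T cells in which Ifng was detected and Il2 was not after 24 h of stimulation. They were chosen by the measured values themselves: a cell was taken when its Ifng value was above 0 and its Il2 value was 0 in the table of the 24 h cells (Ifng+ Il2- cells). They were set against the cells of the same library in which both values were 0 (Ifng- Il2- cells). A value of 0 does not show that a cell held no transcript of the gene. There were 448 Ifng+ Il2- cells among 3809 cells at 24 h and 13629 cells in the whole series. Of these, 328 came from the library with myeloid-derived suppressor cells (MDSCs) and 120 from the library without them.

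All groups were OT-I CD8+ T cells of strain C57BL/6-Tg(TcraTcrb)1100Mjb/J from spleen and lymph nodes, whose transgenic T cell receptor recognises the ovalbumin peptide SIINFEKL. The T cells were co-cultured with dendritic cells (DCs) that presented this peptide, together with MDSCs (24hrs-MDSC) or without them (24hrs-DC), then enriched by fluorescence-activated sorting and measured on the 10x Genomics droplet platform. MDSCs are immature myeloid cells known for restraining T cell responses. Each group was 1 library (2247 cells with MDSCs and 1562 cells without), so every difference is given without a replicate and without a test. The series also holds 1 library of unstimulated cells (0 h) and 1 library each at 72 h with and without MDSCs. The age and number of animals are not given in the sources used here.

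Interferon gamma, the product of Ifng, is secreted by activated CD8+ T cells and acts on neighbouring cells, in which it switches on guanylate-binding GTPases, antigen presentation genes and chemokines. Interleukin-2, the product of Il2, is a growth factor that the same cells make soon after the T cell receptor and CD28 are engaged. Both genes are opened by calcium-dependent NFAT factors that work with AP-1 and NF-kB, and individual T cells of the same clone are known to differ in which of these cytokines they transcribe.

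The promoters of 4 genes are shown because the classes of cells rest on Ifng and Il2, and because Ccl3 and Gadd45g stood out in the comparisons that follow. Each window runs from 250 bases before to 50 bases after the start of the gene, 5′ to 3′ on the gene's own strand, from RefSeq on build GRCm38.p6. Capitals mark the core of NFAT sites, GGAAA or its reverse complement TTTCC.
Ifng (chr10:118440796-118441095, plus strand): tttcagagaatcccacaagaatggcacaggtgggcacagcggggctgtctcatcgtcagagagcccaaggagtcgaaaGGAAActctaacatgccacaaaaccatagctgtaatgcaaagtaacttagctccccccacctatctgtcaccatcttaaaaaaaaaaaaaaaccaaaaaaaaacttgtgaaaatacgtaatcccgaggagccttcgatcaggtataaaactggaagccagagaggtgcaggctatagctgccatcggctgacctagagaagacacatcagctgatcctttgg
Il2 (chr3:37125905-37126204, minus strand): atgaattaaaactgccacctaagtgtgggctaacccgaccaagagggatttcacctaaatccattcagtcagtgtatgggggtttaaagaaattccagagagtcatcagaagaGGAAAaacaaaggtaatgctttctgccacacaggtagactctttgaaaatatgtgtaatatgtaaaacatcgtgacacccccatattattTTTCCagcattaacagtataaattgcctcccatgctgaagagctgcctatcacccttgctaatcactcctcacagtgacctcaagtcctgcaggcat
Ccl3 (chr11:83649329-83649628, minus strand): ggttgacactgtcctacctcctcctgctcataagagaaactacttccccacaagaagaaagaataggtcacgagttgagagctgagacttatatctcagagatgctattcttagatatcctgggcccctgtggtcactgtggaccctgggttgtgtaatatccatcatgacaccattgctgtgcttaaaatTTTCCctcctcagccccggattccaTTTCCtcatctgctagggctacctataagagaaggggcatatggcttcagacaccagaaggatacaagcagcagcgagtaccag
Gadd45g (chr13:51846425-51846724, plus strand): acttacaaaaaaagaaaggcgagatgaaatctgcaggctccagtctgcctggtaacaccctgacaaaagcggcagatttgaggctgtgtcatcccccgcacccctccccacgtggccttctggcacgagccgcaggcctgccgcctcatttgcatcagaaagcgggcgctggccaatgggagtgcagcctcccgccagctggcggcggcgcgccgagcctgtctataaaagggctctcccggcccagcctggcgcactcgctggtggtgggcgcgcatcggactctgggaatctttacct
The core was found at 1 place in the Ifng window, at 2 places each in those of Il2 and Ccl3, and at 0 places in that of Gadd45g. It is short and common: 61.3% of 32851 promoter windows of the same length held it on either strand. TGANTCA (AP-1) and TCACACCT (T-box factors) were in none of these 4 windows, against 7.81% and 1.28% of all windows. A match is a description of the letters and not a measured site.

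Ifng+ Il2- cells made up 14.6% of the library with MDSCs (exact 95% interval 13.2 to 16.1%) and 7.68% of the library without (6.41 to 9.12%). All intervals given here cover counting error only. Cells with both transcripts (Ifng+ Il2+) made up 13.9% with MDSCs and 8.07% without. Cells with Il2 alone (Ifng- Il2+) made up 35.5% and 48.0%, and cells with neither 36% and 36.3%, in the libraries with and without MDSCs. The Ifng- Il2- cells that serve for comparison thus numbered 810 with MDSCs and 567 without.

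In the library with MDSCs, Ifng was above 0 about as often in cells without Il2 as in cells with it. In the other library it was above 0 somewhat more often in cells without Il2. With MDSCs, Ifng was above 0 in 28.8% of the 1138 cells with Il2 at 0 (26.2 to 31.6%) and in 28.1% of the 1109 cells with Il2 above 0 (25.5 to 30.9%), an odds ratio of 0.967. Without MDSCs, the shares were 17.5% of 687 cells (14.7 to 20.5%) and 14.4% of 875 cells (12.1 to 16.9%), an odds ratio of 0.795. Within either library, the intervals of the shares overlapped, which does not show that the shares were equal. These shares use the values that chose the cells and are a description only. Seen from the other side, 51.25% of the Ifng+ cells with MDSCs and 48.8% of those without had Il2 at 0.

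The class was almost limited to 24 h in these libraries. In the authors' table of all time points, which was adjusted separately, it held 351 cells (15.6%) with MDSCs and 122 cells (7.81%) without at 24 h. At 72 h it held 29 of 4942 cells with MDSCs (0.587%) and 9 of 1926 cells without (0.467%), and before stimulation 26 of 2952 cells (0.881%). The unstimulated cells give a background for the share, at a median of 2210 genes above 0 per cell, against 3621 and 3583.5 at 24 h with and without MDSCs. Both 24 h libraries lay above it and above both 72 h libraries. Ifng- Il2- cells at 24 h numbered 916 with MDSCs and 622 without in the table of all time points. In the 24 h table they numbered 810 and 567. Of the cells chosen from the 24 h table, 323 of 328 with MDSCs and 117 of 120 without were chosen again from the table of all time points.

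**Figure D1:**
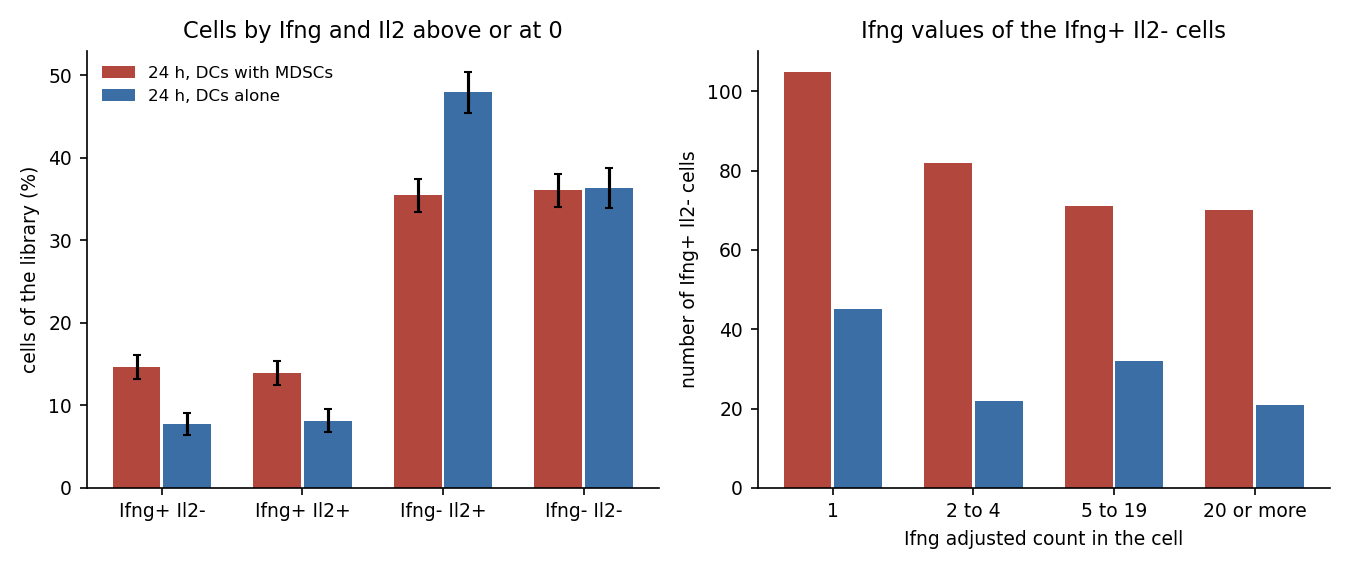
Left, share of cells in each class defined by Ifng and Il2 above 0 or at 0 (percent of the library, bars with exact 95% intervals) in the 24 h libraries with MDSCs (red) and without (blue). Right, number of Ifng+ Il2- cells by their Ifng adjusted count. Ifng+ Il2- cells are 14.6% of the library with MDSCs and 7.68% of that without, and the lowest Ifng value is the commonest in both.

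Ifng varied widely among the chosen cells. Its adjusted count, the whole number recovered from the deposited natural log value, had a median of 3 and a maximum of 246 with MDSCs, and a median of 3 and a maximum of 89 without. Many cells stood at the lowest value of 1, namely 105 cells with MDSCs (32.0%) and 45 without (37.5%). At the other end, 70 cells with MDSCs (21.3%) and 21 without (17.5%) reached 20 or more. The 10% of cells with the highest values held 64.4% of all Ifng counts with MDSCs and 48.3% without. Within the chosen class, Ifng counts were thus concentrated in a small part of the cells, more so with MDSCs. In Ifng+ Il2+ cells the order was the reverse, at 62.5% with MDSCs and 72.0% without. The level of Ifng over the class was 1047 CPM with MDSCs and 575 CPM without, where CPM is the sum of a gene over the class, scaled so that all genes together make 1000000; all levels below are on this scale. In Ifng+ Il2+ cells the level of Ifng was 775 CPM with MDSCs and 850 CPM without. The highest Ifng count in that class was 324 among 312 cells with MDSCs and 638 among 126 cells without. How far the order of these levels, and of the shares of counts in Ifng+ Il2+ cells, rests on the cell at 638 was not tested. Just outside the rule lay 130 Ifng+ cells with MDSCs and 56 without whose Il2 adjusted count was 1.

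The chosen cells carried the transcripts of CD8+ T cells. Cd8a was above 0 in all 328 cells with MDSCs and in 118 of 120 without, and Cd8b1 in 325 and 119. Of 8 marker lists of other cell types, the lists for granulocytes, B cells, gamma-delta T cells and red cells or platelets summed to at most 5.2 CPM in the Ifng+ Il2- cells of either library. The granulocyte list, which matters because MDSCs were in the culture, stood at 3.89 CPM in Ifng+ Il2- cells against 3.41 CPM in Ifng- Il2- cells with MDSCs, and at 0 CPM against 0.275 CPM without. The monocyte list stood at 45.1 against 38.6 CPM with MDSCs and 78.0 against 51.5 CPM without, most of it Lgals3 and Ctss. The dendritic cell list stood at 233 against 189.6 CPM with MDSCs and 189 against 165 CPM without. Of its 13 genes in the table, Itgax, Zbtb46, Ccl22, Ccl17, Cd86, Fscn1 and the class II genes H2-Aa, H2-Ab1 and H2-Eb1 were above 0 in at most 2.5% of the Ifng+ Il2- cells of either library, and Ccl22 was at 0 in both. The other 4 were more frequent. Batf3 was above 0 in 46.0% of Ifng+ Il2- cells against 33.95% of Ifng- Il2- cells with MDSCs and in 33.3% against 18.3% without, and Cd83 in 25% against 19.6% with MDSCs and in 30% against 21.9% without. Cst3 was above 0 in 74.1% against 77.0% with MDSCs and in 70.8% against 77.1% without, and Cd74 in 19.2% against 22.2% and in 14.2% against 18.9%. Batf3 and Cd83 were thus more frequent in the chosen cells and Cst3 and Cd74 less frequent; the part of dendritic cell RNA in the results was not tested. The NK cell list stood at 65.7 against 43.7 CPM with MDSCs and 75.4 against 37.2 CPM without, most of it Eomes. Its genes Klra9, Tyrobp, Fcer1g, Gzma and Klre1 were also higher in Ifng+ Il2- cells of each library, at 9.24 CPM or less. Klre1 was above 0 in 8 of 328 against 9 of 810 cells with MDSCs, and in 4 of 120 against 3 of 567 without. The list for CD4 and regulatory T cells stood at 33.6 against 30.4 CPM with MDSCs and 50.3 against 54.9 CPM without, all but a small part of it Ctla4 and Ikzf2. Only 2 of the 328 cells with MDSCs and 1 of the 120 without had 3 or more of the rarer markers of another type. Leaving such cells out of both classes kept 10 of the 11 genes named first below past the same size of difference in both libraries.

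Depth cannot be recovered from these values, but the number of genes above 0 per cell was close between the classes. Its median was 3628.5 in Ifng+ Il2- cells and 3616 in Ifng- Il2- cells with MDSCs, and 3821.5 and 3713 without. The summed count of S, G2 and M phase genes had a median of 186.5 in Ifng+ Il2- cells against 193 in Ifng- Il2- cells with MDSCs, and 159 against 149 without. Ribosomal protein genes took 33.7% of the counts of Ifng+ Il2- cells and 34.5% of those of Ifng- Il2- cells with MDSCs, and 35.9% and 38.3% without. The part of the last of these gaps in the results without MDSCs was not tested beyond the totals given in the closing section. The 24 h libraries shared 7 cell barcodes, among them that of 1 Ifng+ Il2- cell.

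Ifng+ Il2- cells differed from Ifng- Il2- cells in few genes, and these led with secreted mediators. Among genes at 50 CPM or more in either class, Ifng and Il2 left out, 13 of 2586 were at least 1.5-fold higher with MDSCs (0.503%) and 0 were 1.5-fold lower. Without MDSCs, 35 of 2605 were higher (1.34%) and 8 lower (0.307%). The class held 328 cells with MDSCs and 120 without, so the ratios without MDSCs rest on fewer cells.

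The same 11 genes were higher in both libraries (0.442% of the 2490 genes that could be judged in both), and 0 genes were lower in both. They were Ccl3, Ccl4, Xcl1, Gadd45g, Tnfrsf9, Klf6, Nkg7, Lgals1, Batf3, Lta and Agpat4. Of the alternatives in the processing, 10 alter the ratios. Under these, 9 of the genes passed 1.5-fold in both libraries each time, Lgals1 did so under 9 and Agpat4 under 7. The remaining calls with MDSCs were Il2rb, a chain of the interleukin-2 receptor, and the kinase gene Stk39, at log2 ratios of 0.61 and 0.64. No control cells are shared between the libraries, so the ratios in each come from different cells.

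**Figure D2:**
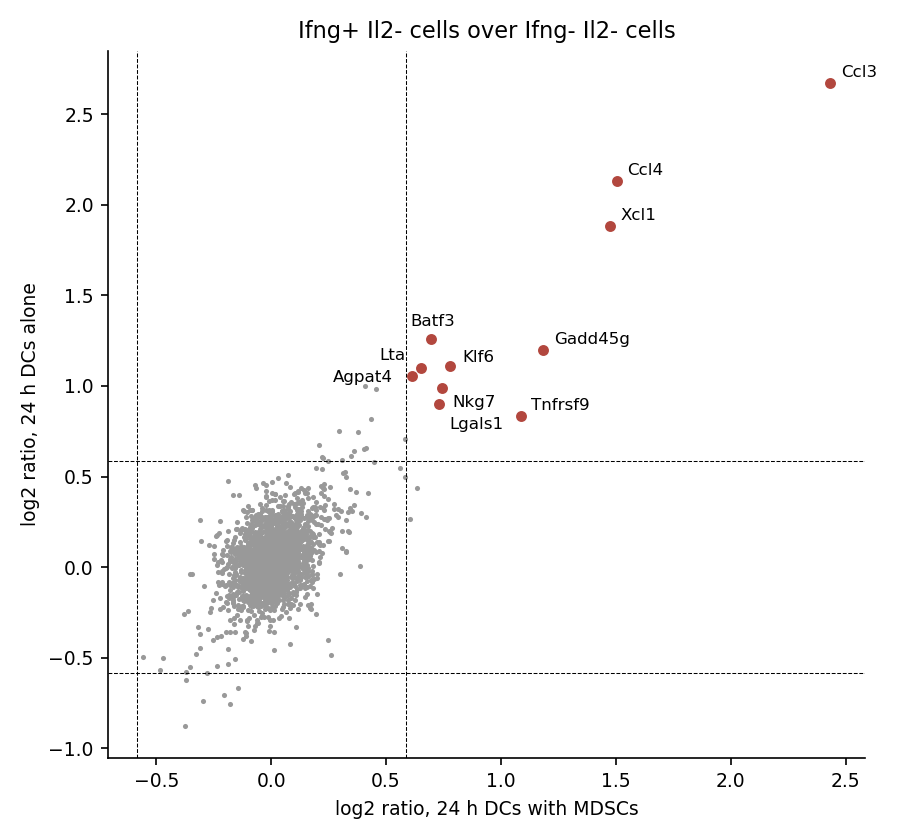
Log2 ratio of the level in Ifng+ Il2- cells over Ifng- Il2- cells in the 24 h library with MDSCs (x axis) and without (y axis), for genes at 50 CPM or more in either class of each library. Dashed lines mark 1.5-fold; red points are the 11 genes past it in both libraries, with Ccl3 farthest out at 2.43 and 2.67.

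Chemokines stood first. Ccl3 and Ccl4 encode chemokines that attract T cells and myeloid cells, and they lie side by side on chromosome 11 (GRCm38, chr11:83647844-83649355 on the minus strand and chr11:83662584-83664683 on the plus strand). Ccl3 stood at 614 CPM in Ifng+ Il2- cells against 114 CPM in Ifng- Il2- cells with MDSCs, and at 409.7 against 64.2 CPM without, log2 ratios of 2.43 and 2.67. It was above 0 in 68.9% of the Ifng+ Il2- cells (63.6 to 73.9%) and in 44.9% of the Ifng- Il2- cells (41.5 to 48.4%) with MDSCs. Without MDSCs it was above 0 in 54.2% (44.8 to 63.3%) against 30.0% (26.2 to 33.9%). Ccl3 was therefore found in more cells as well as at a higher level, and its intervals did not overlap in either library. Its counts were concentrated: the 10% of Ifng+ Il2- cells with the highest values held 62.4% of them with MDSCs and 78.2% without, where the highest cell alone held 19.4%.

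Ccl4 stood at 1167 CPM in Ifng+ Il2- cells against 411 CPM in Ifng- Il2- cells with MDSCs, a log2 ratio of 1.51. Without MDSCs it stood at 1312 against 299.9 CPM, a log2 ratio of 2.13. It was above 0 in 89.6% of Ifng+ Il2- cells against 76.8% of Ifng- Il2- cells with MDSCs, and in 78.3% against 64.4% without. Most cells of either class thus carried Ccl4, and its median adjusted count was 5.5 against 2 with MDSCs and 5 against 1 without. Xcl1 encodes lymphotactin, which attracts cross-presenting dendritic cells that carry the receptor XCR1. It stood at 462 against 167 CPM with MDSCs and at 844 against 229 CPM without, log2 ratios of 1.47 and 1.88. It was above 0 in 69.8% of Ifng+ Il2- cells (64.5 to 74.7%) against 51.5% of Ifng- Il2- cells (48.0 to 55.0%) with MDSCs, and in 64.2% (54.9 to 72.7%) against 48.9% (44.7 to 53.1%) without.

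Gadd45g and Batf3 had a higher summed level in Ifng+ Il2- cells than in every other class. Gadd45g encodes a stress-induced activator of the p38 kinase pathway that is known to favour interferon gamma production in T cells, and Batf3 encodes a transcription factor of the AP-1 family. Gadd45g stood at 113 CPM in Ifng+ Il2- cells with MDSCs, against 56.9 CPM in Ifng+ Il2+ cells, 32.9 CPM in Ifng- Il2+ cells and 49.7 CPM in Ifng- Il2- cells. Without MDSCs the levels were 115 CPM in Ifng+ Il2- cells, 53.1 CPM in Ifng+ Il2+ cells, 31.1 CPM in Ifng- Il2+ cells and 50.3 CPM in Ifng- Il2- cells. The order and the levels were nearly the same in both libraries, and the lowest level was in the cells with Il2 alone. Gadd45g was above 0 in 51.8% of Ifng+ Il2- cells (46.3 to 57.4%) against 35.8% of Ifng- Il2- cells (32.5 to 39.2%) with MDSCs, and in 60.8% (51.5 to 69.6%) against 33.3% (29.5 to 37.4%) without.

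Batf3 stood at 109 CPM in Ifng+ Il2- cells with MDSCs, against 62.3 CPM in Ifng+ Il2+ cells, 38.5 CPM in Ifng- Il2+ cells and 67.2 CPM in Ifng- Il2- cells. Without MDSCs it stood at 79.8 CPM in Ifng+ Il2- cells, against 51.9, 21.0 and 33.3 CPM in the other classes in the same order. Among 2566 genes at 50 CPM or more in some class of each library, these 2 genes (0.0779%) were at least 1.5-fold higher in Ifng+ Il2- cells than in each other class in both libraries, and 0 genes were 1.5-fold lower. Their smallest margins over the next class were 1.99-fold for Gadd45g and 1.54-fold for Batf3. Batf3 is also in the dendritic cell list, whose other genes are given above.

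The other genes higher in both libraries encode a mixed set of surface, granule and regulatory proteins. Tnfrsf9, the costimulatory receptor 4-1BB, stood at 269 CPM in Ifng+ Il2- cells against 127 CPM in Ifng- Il2- cells with MDSCs and at 356 against 199.9 CPM without. Nkg7, a membrane protein of cytotoxic granules, stood at 573 against 342 CPM with MDSCs and at 901 against 454 CPM without. Lta, the cytokine lymphotoxin alpha, stood at 536 against 340.3 CPM with MDSCs and at 412 against 192 CPM without. These 3 transcripts were found in most cells of both classes, and in a larger share of Ifng+ Il2- cells in each library. Tnfrsf9 was above 0 in 87.2% against 72.5% with MDSCs and in 91.7% against 81.8% without. Nkg7 was above 0 in 96.3% against 90.6% with MDSCs and in 95% against 85.9% without. For Lta the shares were 93.9% against 88.4% with MDSCs and 92.5% against 73.2% without. Klf6, a zinc finger transcription factor, stood at 63.9 against 37.2 CPM with MDSCs and at 65.5 against 30.4 CPM without. Lgals1, the secreted lectin galectin-1, stood at 237 against 143 CPM with MDSCs and at 186 against 99.8 CPM without. Agpat4, an enzyme of phospholipid synthesis, stood at 55.9 against 36.6 CPM with MDSCs and at 65.0 against 31.3 CPM without. Log2 ratios of these 6 genes lay between 0.61 and 1.09 with MDSCs and between 0.83 and 1.11 without. Against Ifng+ Il2+ cells their log2 ratios lay between -0.16 and 0.35 with MDSCs and between -0.15 and 0.14 without, all within 1.5-fold. The higher level of these 6 genes was thus not particular to the Ifng+ cells with Il2 at 0.

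**Figure D3:**
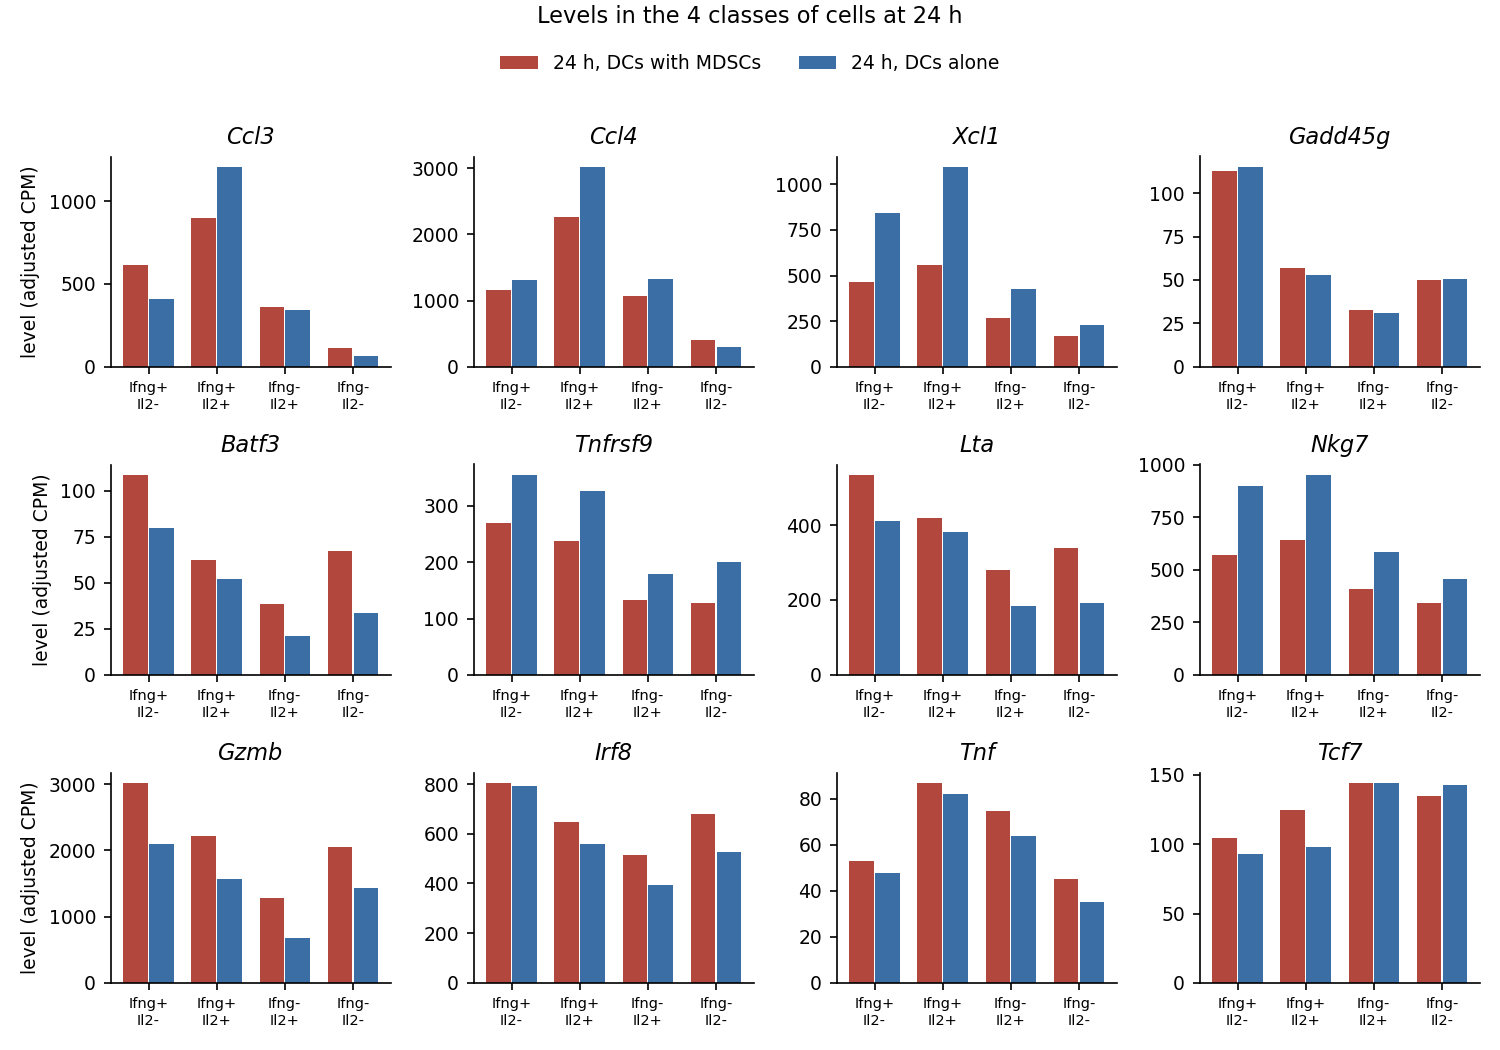
Level (adjusted CPM) of 12 genes in the 4 classes of cells defined by Ifng and Il2, in the 24 h libraries with MDSCs (red) and without (blue); each bar is the summed level of 1 class in 1 library, without a replicate. Gadd45g and Batf3 are highest in Ifng+ Il2- cells, whereas Ccl3, Ccl4 and Xcl1 are highest in Ifng+ Il2+ cells.

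Granzyme B, the protease that cytotoxic T cells deliver into target cells, followed the same order without reaching 1.5-fold. Gzmb stood at 3026 CPM in Ifng+ Il2- cells against 2049 CPM in Ifng- Il2- cells with MDSCs, and at 2101 against 1435.5 CPM without, log2 ratios of 0.56 and 0.55. Its median adjusted count was 53 against 29 with MDSCs and 34 against 12 without. Of all 4 classes, Ifng+ Il2- cells had the highest Gzmb level in each library, and cells with Il2 alone the lowest, at 1279 CPM with MDSCs and 671 CPM without. Perforin, the pore-forming partner of granzymes, was nearly undetected: Prf1 was above 0 in 5 of 328 Ifng+ Il2- cells against 6 of 810 Ifng- Il2- cells with MDSCs, and in 1 of 120 against 0 of 567 without. In the list of 24 cytotoxic and granule genes, 11 reached 10 CPM in each library; 1 was at least 1.5-fold higher with MDSCs (Nkg7) and 3 without (Nkg7, Ctsw and Serpinb9). The median log2 ratio of that list was 0.24 with MDSCs and 0.31 without, beside 0.01 and 0.06 over all genes at 10 CPM or more. At that minimum, 0.889% of all 6301 genes were higher and 0.222% lower with MDSCs, and 3.55% of 6485 were higher and 1.4% lower without.

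Of the lists with 10 or more genes at that minimum, cytokines and chemokines had the highest medians in both libraries. Of its 17 genes at 10 CPM or more besides Ifng and Il2, 8 were higher and 2 lower with MDSCs, and 9 higher and 2 lower without, and the median log2 ratio was 0.27 and 0.89. Beside Ccl3, Ccl4, Xcl1 and Lta, the chemokine genes Ccl1, Ccl5 and Ccl9 were higher in both libraries, and Cxcl10, a chemokine induced by interferon, was lower in both. Ccl1 and Ccl9 were below 50 CPM and came from few cells. Ccl1 was above 0 in 9 of 328 Ifng+ Il2- cells (28.2 CPM) against 6 of 810 Ifng- Il2- cells (0.657 CPM) with MDSCs, and in 7 of 120 (26.9 CPM) against 5 of 567 (0.551 CPM) without. A single cell held 53.4% of the Ccl1 counts of the class with MDSCs and 50% without. Ccl9 was above 0 in 36 Ifng+ Il2- cells (11%) against 31 Ifng- Il2- cells (3.83%) with MDSCs, and in 11 (9.17%) against 22 (3.88%) without. Tnf, which many activated T cells transcribe, stood at 53 against 45.0 CPM with MDSCs and at 47.7 against 35.2 CPM without, within 1.5-fold. Il22 lay on opposite sides in the libraries at levels of at most 20.4 CPM.

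Genes that are switched on early after receptor engagement were partly higher. In the list of early activation, NF-kB and NFAT genes, 4 of 26 were higher with MDSCs and 10 of 29 without, with 0 lower in either library, and the medians were 0.15 and 0.20. Crtam, an adhesion receptor of activated CD8+ T cells, stood at 39.4 CPM in Ifng+ Il2- cells against 17.4 CPM in Ifng- Il2- cells with MDSCs and at 55.9 against 15 CPM without. Nr4a3, a nuclear receptor induced by receptor signals, stood at 39.1 against 20.8 CPM with MDSCs and at 43.8 against 17.3 CPM without. Rel and Rgs16 were also past 1.5-fold in both libraries. Nr4a1, a relative of Nr4a3, had log2 ratios of 0.57 with MDSCs and 0.56 without, just under 1.5-fold. Cd69, an early surface marker, had 0.09 and 0.05. Other members of the list were lower without passing 1.5-fold. Jun had log2 ratios of -0.22 with MDSCs and -0.52 without, and Batf had -0.14 and -0.10. Nfkbia had -0.22 with MDSCs and 0.03 without.

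Among regulators of type 1 T cell fate, Eomes was higher and Tbx21 was not. These genes encode T-box factors, both known to bind near Ifng in effector T cells. Eomes stood at 48.6 against 31.6 CPM with MDSCs and at 63.3 against 32.9 CPM without, log2 ratios of 0.62 and 0.95. It was above 0 in 44.2% of Ifng+ Il2- cells (38.8 to 49.8%) against 29.8% of Ifng- Il2- cells (26.6 to 33.0%) with MDSCs, and in 46.7% (37.5 to 56.0%) against 27.7% (24.0 to 31.6%) without. Tbx21, which encodes T-bet, stood at 49.8 against 54.2 CPM with MDSCs and at 33.4 against 43.4 CPM without. Il12rb2, a chain of the receptor for interleukin-12, differed by -0.08 and -0.12 on the log2 scale. Irf8, a transcription factor of the interferon regulatory family, stood at 806 against 679.8 CPM with MDSCs and at 792 against 528 CPM without, with 1.5-fold reached only without MDSCs (log2 ratios 0.25 and 0.59). In the whole list, 2 of 12 genes were higher with MDSCs and 5 of 13 without, where Irf1 was lower.

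Genes of the response to interferon gamma were not higher in the cells that transcribed it. In the list of interferon gamma-induced GTPases and antigen presentation genes, 0 of 19 were higher and 2 lower with MDSCs, and 0 of 21 higher and 4 lower without, and the medians were -0.12 and -0.17. Cxcl10 and Gbp4, a guanylate-binding protein, were lower in both libraries at 9.97 to 31.3 CPM. Several more genes were lower without passing 1.5-fold in both. Igtp, an interferon-induced GTPase, stood at 107 CPM in Ifng+ Il2- cells against 149 CPM in Ifng- Il2- cells with MDSCs and at 118 against 176 CPM without. Irf1 stood at 28.2 against 40.8 CPM with MDSCs and at 30.3 against 55.7 CPM without, and B2m, the light chain of MHC class I, differed by 0.04 and -0.09 on the log2 scale.

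Transcripts of naive and resting T cells were lower in part. The median log2 ratio of that list was -0.15 with MDSCs, where 1 of 16 genes was higher and 2 were lower, and -0.23 without, where 1 of 19 was higher and 3 were lower. Tcf7, which encodes the transcription factor TCF-1 of naive and memory T cells, stood at 104 against 135 CPM with MDSCs and at 92.8 against 143 CPM without. Ccr7, the receptor that guides T cells into lymph nodes, stood at 277 against 340.6 CPM with MDSCs and at 356 against 593 CPM without. Both passed 1.5-fold only without MDSCs. Lef1, also of this list, had log2 ratios of -0.43 with MDSCs and -0.49 without. In the other direction, Ly6c2 stood at 29.3 against 14.1 CPM with MDSCs and at 25.6 against 13.2 CPM without. Its log2 ratios were 1.06 and 0.95, past 1.5-fold in both libraries. Slfn2 had 0.29 and 0.32, and Btg1 had 0.29 and 0.28. Cd28, the costimulatory receptor named above, is not in this list but in that of T cell receptor and CD8 genes. It stood at 79.1 against 103 CPM with MDSCs and at 75.9 against 139 CPM without.

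The remaining lists had medians on either side of that of all genes. S phase genes had medians of -0.06 with MDSCs and 0.03 without, and G2 and M phase genes -0.04 and 0.19. The medians were 0.00 and 0.11 for ribosome biogenesis and MYC targets, 0.00 and 0.09 for glycolysis, 0.01 and -0.03 for hypoxia genes, and 0.05 and 0.21 for the integrated stress response. They were 0.09 and 0.03 for cholesterol and fatty acid synthesis, 0.04 and 0.05 for p53 targets (1 of 14 and 4 of 15 higher), 0.17 and 0.10 for the BCL2 family, and 0.02 and 0.05 for chaperones. Genes of the interleukin-2 receptor and its STAT5 targets had medians of 0.17 and 0.29, and 3 of 20 and 3 of 21 of them were higher. Receptors for interleukin-12, interleukin-18 and interferon had medians of 0.02 and 0.05, TNF family ligands and receptors 0.17 and 0.24 (2 of 11 and 4 of 14 higher), and inhibitory receptors 0.13 and 0.07. Adhesion and trafficking genes had 0.17 and 0.11 (3 of 19 and 4 of 20 higher), T cell receptor and CD8 genes 0.13 and 0.13, and other interferon response genes -0.10 and -0.10. The list of killer cell lectin-like receptors had 0.10 with MDSCs and 1.73 without, but from 3 and 5 genes at 10 CPM or more. Among these, Klrk1, the activating receptor NKG2D, was above 0 in 34 of 328 Ifng+ Il2- cells against 32 of 810 Ifng- Il2- cells with MDSCs, and in 11 of 120 against 8 of 567 without.

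**Figure D4:**
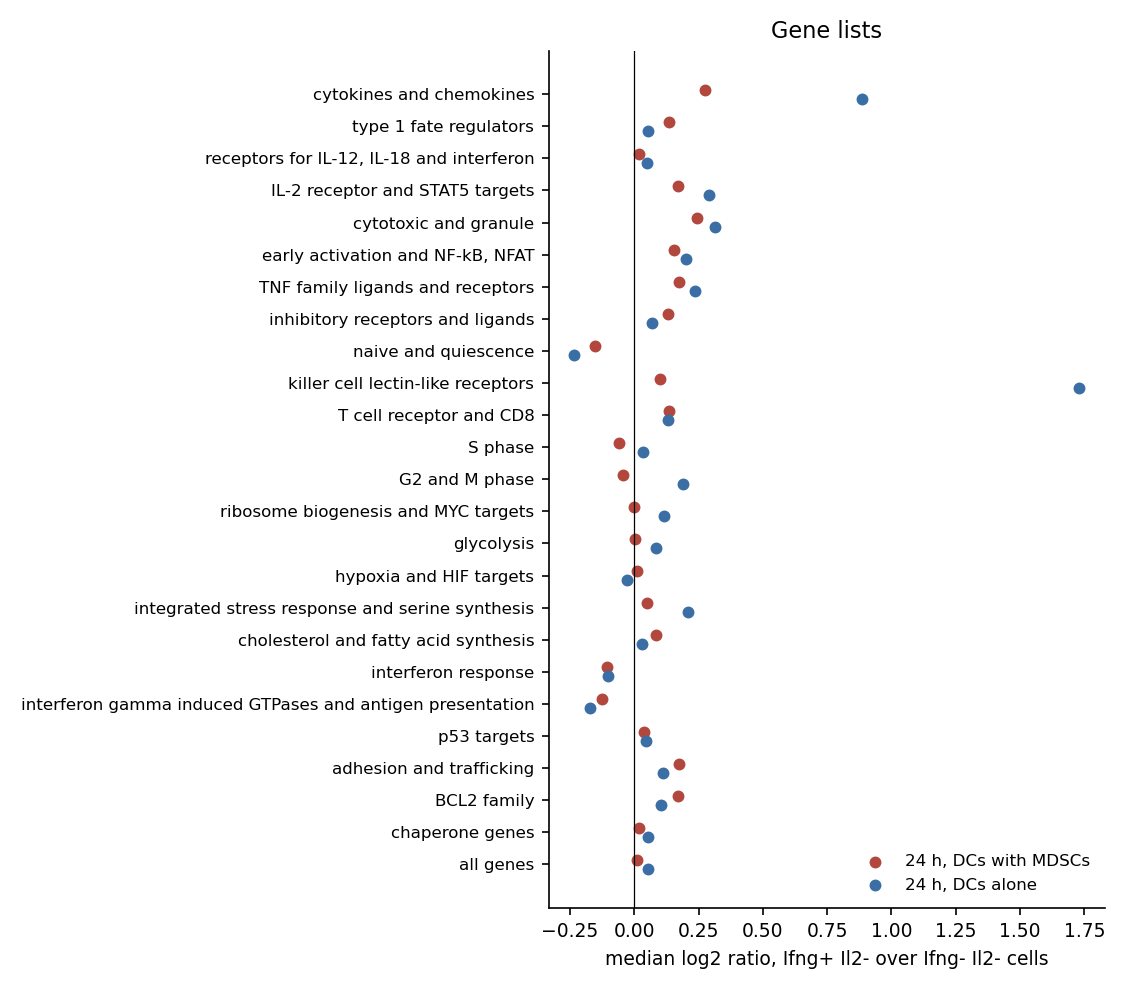
Median log2 ratio of the level in Ifng+ Il2- cells over Ifng- Il2- cells for gene lists, over list members at 10 CPM or more in either class, in the 24 h libraries with MDSCs (red) and without (blue), with all genes in the last line. Cytokines and chemokines lie farthest right among lists of 10 or more such genes (0.27 and 0.89), and interferon gamma-induced and naive genes lie left of 0.

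The cells with Il2 at 0 were also described by how much Ifng they held, the value that chose them. With MDSCs, 4 genes were at least 1.5-fold higher than in Ifng- Il2- cells among the 105 cells with an Ifng count of 1, 12 among the 82 cells at 2 to 4, 30 among the 71 cells at 5 to 19, and 55 among the 70 cells at 20 or more. The numbers lower were 0, 2, 7 and 25 in the same order. Without MDSCs the bins held 45, 22, 32 and 21 cells, and 30, 132, 88 and 238 genes were higher, with no steady order. Smaller bins give more scattered ratios, so these counts cannot be compared between the libraries or between bins of different size.

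Ccl3 was far higher in the cells with the most Ifng. With MDSCs its level was 114 CPM at an Ifng count of 0, 281 CPM at 1, 309 CPM at 2 to 4, 772 CPM at 5 to 19 and 1320 CPM at 20 or more. Without MDSCs the levels were 64.2, 51.8, 207, 796 and 809 CPM over the same bins. At the lowest Ifng value, Ccl3 was thus above its level in Ifng- Il2- cells with MDSCs and below it without. At that value without MDSCs, Ccl4 (263 against 299.9 CPM) and Klf6 (29.9 against 30.4 CPM) were also below their levels in Ifng- Il2- cells. The rest of the genes higher in both libraries were above theirs. Gadd45g stood at 49.7, 53.9, 112, 126 and 191 CPM with MDSCs and at 50.3, 85.2, 65.9, 159 and 167 CPM without. Tnfrsf9 stood at 127, 175, 248, 278 and 428 CPM with MDSCs and at 199.9, 237, 301, 499 and 453 CPM without. Nkg7 stood at 342, 415, 546, 591 and 824 CPM with MDSCs and at 454, 492, 819, 1396 and 1121 CPM without. All 4 genes were highest in the upper 2 bins of both libraries. Ccl4 and Xcl1 also climbed bin by bin with MDSCs, to 1647 and 609.8 CPM. Without MDSCs they peaked in the middle bins, at 2345.5 CPM for Ccl4 at 2 to 4 and 1345 CPM for Xcl1 at 5 to 19. Klf6, Lta and Agpat4 were highest at 20 or more in both libraries. Batf3 and Lgals1 were less regular. Batf3 stood at 67.2, 96.7, 79.8, 131 and 138 CPM with MDSCs and at 33.3, 97.9, 30.6, 53.9 and 132 CPM without. Lgals1 stood at 143, 172, 235, 208 and 368 CPM with MDSCs and at 99.8, 124, 278, 257 and 117 CPM without.

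Igtp and Irgm1, picked from the interferon-induced genes after their values were seen, had the opposite order. Igtp stood at 149, 125, 102, 116 and 74.2 CPM over the Ifng bins with MDSCs, and at 176, 175, 96.5, 94.8 and 54.8 CPM without. Irgm1, another interferon-induced GTPase, stood at 28.1 CPM in the lowest bin and 10.7 CPM in the highest with MDSCs, and at 33.5 and 2.49 CPM without. In both libraries Igtp and Irgm1 were lowest in the cells with the most Ifng. Cd28 had the same direction, at 103 CPM in the lowest bin and 44.4 CPM in the highest with MDSCs, and at 139 and 44.8 CPM without. Cd8a stayed between 435 and 477 CPM with MDSCs and between 411 and 593 CPM without, and Tbx21 was no higher at 20 or more (40.6 and 34.9 CPM) than at 0 (54.2 and 43.4 CPM).

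**Figure D5:**
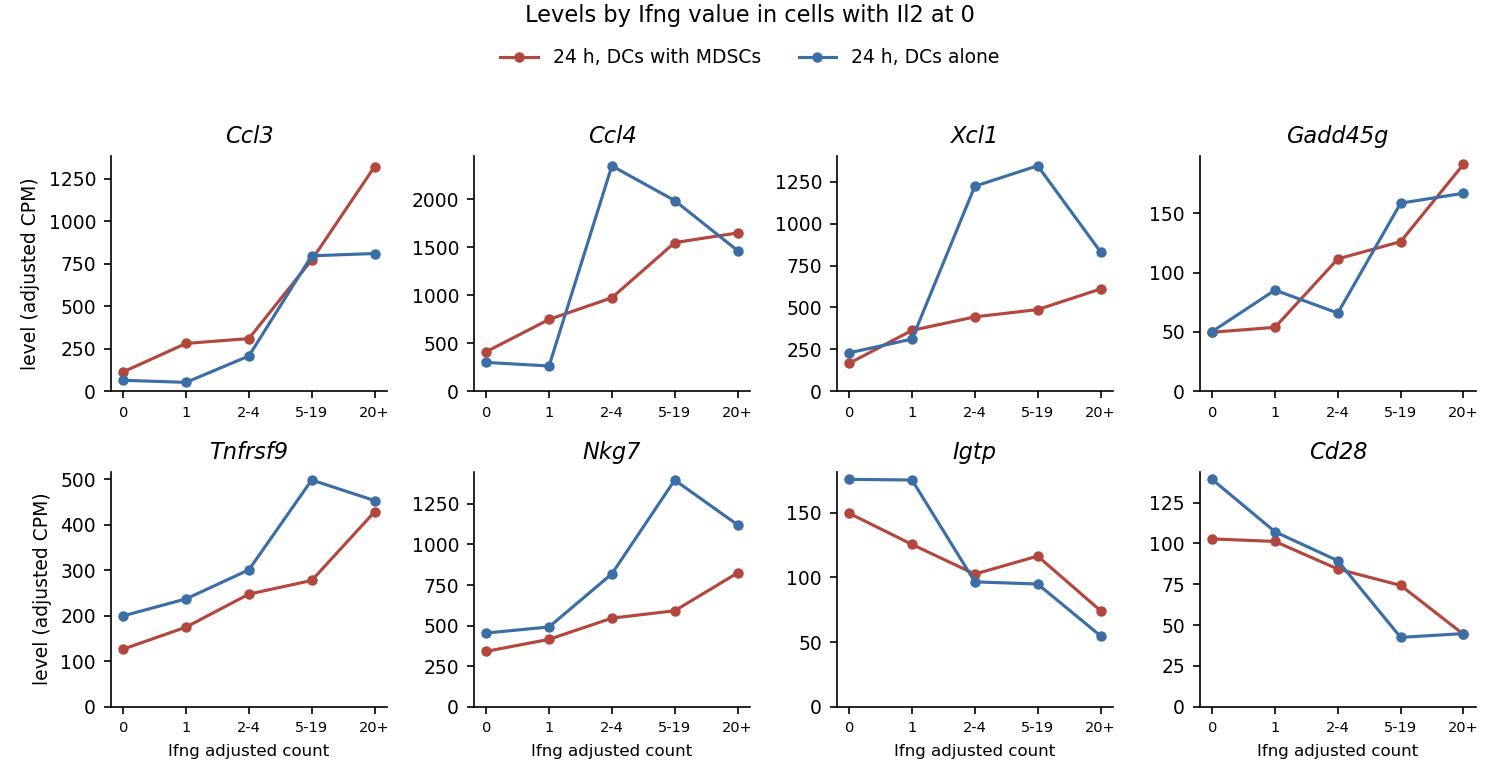
Level (adjusted CPM) of 8 genes in cells with Il2 at 0, by the Ifng adjusted count of the cell, in the 24 h libraries with MDSCs (red) and without (blue); each point is the summed level of 1 bin, of 21 to 105 cells above an Ifng count of 0. Ccl3, Gadd45g, Tnfrsf9 and Nkg7 are highest in the upper bins and Igtp and Cd28 are lowest there.

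The comparison was then set side by side between the libraries. For 2 of 2490 genes (0.0803%) the log2 ratio of Ifng+ Il2- over Ifng- Il2- cells was higher with MDSCs than without by 1.5-fold or more, and for 3 (0.12%) it was lower. Tnfrsf4, the costimulatory receptor OX40, had a ratio of 0.26 with MDSCs and -0.49 without. Its level was 96.5 against 80.6 CPM with MDSCs and 82.8 against 116 CPM without. Lag3, an inhibitory receptor, had a ratio of 0.25 with MDSCs and -0.40 without, at 54.2 against 45.6 CPM and at 52.5 against 69.4 CPM. For both genes the Ifng+ Il2- cells of the libraries were closer to each other than the Ifng- Il2- cells were. The 3 genes with a lower ratio with MDSCs were Endog, a mitochondrial nuclease (-0.19 and 0.47), Ccl4 (1.51 and 2.13) and Rbpj, the transcription factor of the Notch pathway (0.41 and 1.0). None of these 5 differences was tested, and their number lay between 0 and 208 under other settings.

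Genes past 1.5-fold only without MDSCs included several whose ratio with MDSCs pointed the same way. The higher genes given here are examples, and such agreement was not counted over all genes higher only without MDSCs. Nfkb1, an NF-kB subunit, stood at 157 CPM in Ifng+ Il2- cells against 116 CPM in Ifng- Il2- cells with MDSCs and at 186 against 105 CPM without. Serpinb9, an inhibitor that protects T cells from their own granzyme B, stood at 237 against 158 CPM with MDSCs and at 167 against 102 CPM without. Thy1, a surface glycoprotein of T cells, stood at 814 against 633 CPM with MDSCs and at 823 against 528 CPM without. Of the 8 genes lower without MDSCs, which were Irf1, Cd28, Evl, Marcksl1, Ccr7, Cd5, Tspan13 and Tcf7, all 8 also had a ratio below 0 with MDSCs, between -0.53 and -0.14. Over all genes at 10 CPM or more with MDSCs the median log2 ratio was 0.01, and the share of genes below 0 was not counted. Evl and the genes Il2rb, Stk39, Ccl5, Cxcl10, Il22, Rel, Rgs16, Gbp4, B2m and Klrk1 above were chosen after their values were seen.

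Cells that transcribed Ifng together with Il2 differ from the chosen cells by the rule in Il2 alone. Ifng+ Il2- cells were at least 1.5-fold higher than Ifng+ Il2+ cells in 2 of 2588 genes (0.0773%) and lower in 13 (0.502%) with MDSCs, and higher in 11 of 2662 (0.413%) and lower in 27 (1.01%) without. In both libraries, 2 of 2510 genes (0.0797%) were higher, Gadd45g and Batf3, and 6 (0.239%) were lower, Ccl4, Tnf, Id3, Bhlhe40, Cd200 and Eea1. Ccl4 stood at 1167 CPM in Ifng+ Il2- cells against 2260 CPM in Ifng+ Il2+ cells with MDSCs and at 1312 against 3026 CPM without. Tnf stood at 53 against 87.2 CPM with MDSCs and at 47.7 against 82.4 CPM without. Ccl4 and Tnf were thus lower in Ifng+ cells without Il2 than in those with it, and in the order of the 4 classes Ccl3, Ccl4 and Xcl1 were all highest in the cells with both cytokines. Ccl3 itself stood at 614 against 899.8 CPM with MDSCs and at 409.7 against 1209.5 CPM without, past 1.5-fold only without MDSCs. Ccl4 in Ifng+ Il2- cells was close to its level in cells with Il2 alone, which was 1076 CPM with MDSCs and 1325 CPM without.

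The transcription factor genes Id3 and Bhlhe40 were higher in the classes with Il2 above 0, with or without Ifng. These and Eea1 were named for their difference from Ifng+ Il2+ cells, after their values were seen. Id3, an inhibitor of E protein factors, stood at 80.7 CPM in Ifng+ Il2- cells with MDSCs, against 148 CPM in Ifng+ Il2+ cells, 141 CPM in Ifng- Il2+ cells and 65.2 CPM in Ifng- Il2- cells. Without MDSCs the levels were 78.0, 142, 133 and 68.0 CPM in the same order. Bhlhe40, a helix-loop-helix regulator of T cell cytokines, stood at 44.6 CPM in Ifng+ Il2- cells with MDSCs, against 77.6, 71.6 and 34.6 CPM in the other classes. Without MDSCs it stood at 42.9 CPM, against 69.6, 83.1 and 36.7 CPM. For both genes the 2 classes with Il2 at 0 lay together below the 2 classes with Il2 above 0, in each library. Cd200, the ligand of an inhibitory receptor on myeloid cells, stood at 64.0 CPM in Ifng+ Il2- cells against 100.1 CPM in Ifng+ Il2+ cells with MDSCs and at 58.1 against 98.0 CPM without. Eea1, an early endosome protein, stood at 45.4 against 70.5 CPM and at 46.0 against 74.5 CPM.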

How the data were processed

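Single-cell libraries were made on the 10x Genomics platform. Per the submitters' processing notes, the tools were Cell Ranger 2.0.1 and Seurat (version not given), with genome build mm10. The values the authors deposited are natural log values, ln(1 + a whole number), in 3 tables adjusted separately. The whole number was recovered as exp(value) - 1. Its total per cell lay between 16999 and 20023 at 24 h (coefficient of variation 3.28%), so these are not molecule counts and depth is unknown.

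Cells were assigned to libraries by the deposited annotation and to classes by Ifng and Il2 in the 24 h table (12631 genes). Adjusted counts were summed per class and scaled to 1000000 (CPM). Genes at 50 CPM or more in either class were called at 1.5-fold, and list members (33 lists, 9 of them cell type markers) at 10 CPM or more. With 1 library per group there was no test. Recovery of known differences by the fold rule was checked on simulated cells. Intervals of shares are exact (Clopper-Pearson, 95%). Doublets were not treated. The 72 h table was not used, and the 72 h and 0 h cells came from the table of all time points.

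Named genes were those past 1.5-fold in both libraries (up to 15 each way), the 8 each way with the largest difference between libraries, up to 3 members each way of every list at 20 CPM or more, and preset genes. Genes named as differing from Ifng+ Il2+ cells, the calls made in 1 library, and list members named for low levels were chosen after their values were seen. The members, the lists and the rules were chosen with earlier results of these data known. Alternatives were equal weight per cell, centred ratios, totals without ribosomal protein and mitochondrial genes, other minimum levels and folds, other Ifng and Il2 limits, the other table, equal weight of sets of cells by genes above 0 or cell cycle counts, and leaving out cells with markers of other types. Gene positions are from GENCODE M21 (GRCm38) and promoters from RefSeq (GRCm38.p6). Python 3.11.15, NumPy 2.4.6, SciPy 1.17.1, pandas 2.3.3 and matplotlib 3.10.9 were used.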

Additional observations from a re-analysis of the deposited data

How the results depend on the processing

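With 1 library per group and adjusted values in place of molecule counts, every count below depends on the chosen level and fold. No paired analysis was possible because each group was 1 library and no result comes from a test. Genes past 1.5-fold in Ifng+ Il2- against Ifng- Il2- cells numbered 13 with MDSCs, 43 without and 11 in both libraries. They were 22, 70 and 17 with a total free of ribosomal protein and mitochondrial genes, 70, 321 and 36 at a minimum of 10 CPM, 7, 11 and 6 at 200 CPM, and 5, 11 and 4 at 2-fold. They were 25, 77 and 20 when an Ifng count of 2 or more was asked for, and 43, 102 and 30 at 5 or more. The table of all time points gave 67 without MDSCs. The number of genes whose ratio differed between the libraries was 5, against 12, 208, 1, 0, 17 and 25 under these settings in the same order, 3 with Il2 counts of 1 allowed and 12 in the table of all time points. Against Ifng+ Il2+ cells the number was 15 with MDSCs, and 102 at 10 CPM, 2 at 200 CPM, 1 at 2-fold, 37 with Il2 counts of 1 allowed and 23 in the table of all time points. Without MDSCs it was 38, and 71 with the reduced total, 453 at 10 CPM, 3 at 200 CPM, 6 at 2-fold, 85 at an Ifng count of 5 or more and 104 with Il2 counts of 1 allowed. The share of Ifng+ Il2- cells was 9.92% with MDSCs and 4.80% without at an Ifng count of 2 or more, 6.28% and 3.39% at 5 or more, and 20.4% and 11.3% with Il2 counts of 1 allowed. The higher or lower minimum, the higher fold and the Ifng and Il2 limits change the number of genes or cells by construction. So does the reduced total, which raises every level and lets more genes reach 50 CPM. With it, 3499 genes could be judged with MDSCs, 3651 without and 3426 in both, against 2586, 2605 and 2490. For the other settings the cause was not tested. Of the ratios of named genes under the alternatives, 3335 moved little, 30 moved more and 1 reversed: Lgals3 without MDSCs, 0.79 as reported, was -1.30 at an Ifng count of 5 or more. Of the list medians, 516 moved little and 2 moved more, both of the killer cell lectin-like receptors at an Ifng count of 5 or more (1.23 with MDSCs and 2.57 without).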
